A study of Mus musculus with 4 samples.

Results

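The erythroid genes of the neonatal liver are described here, that is, genes whose RNA is made by red-cell precursors on the way from a committed progenitor to a reticulocyte. They were chosen by name: 37 genes of globin synthesis, heme synthesis, iron and mitochondrial transport, the red-cell membrane and its skeleton, and the early regulators of the lineage. Of these, 33 had at least 1 probe named for them on the array (52 probes), and 31 could be tested, among 9502 genes tested in all. Hbb-b1, Ahsp, Slc25a37 and Car1 had no probe named for them here, and the probes of Epb42 and Bpgm were not detected on any array. RNA of whole liver was read on Illumina bead arrays (MouseRef-8 v2.0), with 2 control livers (Control 1 and Control 2, genotype given as wild type) and 2 Lats1/2 double-knockout livers (DKO 1 and DKO 2, Lats1-/-;Lats2f/fl;Alb-cre). All 4 came from postnatal day 1 mice of a B6;129 mixed strain labelled as female. In the DKO mice the Lats1 null alleles are in every cell, while Lats2 was deleted only where the albumin promoter drove Cre, which is in the hepatoblast lineage and not in blood cells. The labels do not say that the arrays of a group came from separate animals, so each p-value covers the spread among these samples alone. Between the DKO arrays that spread may be technical. The 2 control arrays differed in sex-linked RNA, as given below, so they were not repeat readings of 1 sample.

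The fetal liver is the main site of red-cell formation before birth, and this activity moves to the bone marrow and spleen around birth, so a newborn liver still holds islands of erythroid cells among the hepatocytes. In these islands GATA1, TAL1 and KLF1 act with NFE2 to switch on the genes of the late erythroblast, while GFI1B acts as a repressor. Erythropoietin acts through its receptor EPOR to keep the precursors alive. The maturing cell then takes up iron through the transferrin receptor, builds heme in the mitochondrion and the cytosol, fills with globin and assembles a spectrin-based skeleton under its membrane before it loses its nucleus. In whole tissue, fewer erythroid cells and less RNA per erythroid cell cannot be told apart.

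The upstream DNA of 5 of these genes is shown because they carry the results below: Alas2, Kel and Hemgn had the smallest adjusted p-values, Klf1 is an early regulator, and Hba-a1 had the change nearest 0. Each line gives the 250 bases before the gene's first listed start, 5′ to 3′ on the gene's strand, from RefSeq (GRCm38.p6). Capitals mark 4 GATA words (the pair AGATAA and AGATAG, then the pair TGATAA and TGATAG), together with CACCC, the word that KLF-type factors read. Either strand was searched, so a word on the opposite strand appears as its reverse complement, such as TTATCT for the first GATA word.
Alas2, chrX:150547167-150547416, plus strand: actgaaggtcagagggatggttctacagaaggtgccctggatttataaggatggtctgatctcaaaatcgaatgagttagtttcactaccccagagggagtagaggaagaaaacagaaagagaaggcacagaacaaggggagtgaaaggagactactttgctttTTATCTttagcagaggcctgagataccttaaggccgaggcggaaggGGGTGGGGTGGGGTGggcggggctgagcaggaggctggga
Kel, chr6:41704326-41704575, minus strand: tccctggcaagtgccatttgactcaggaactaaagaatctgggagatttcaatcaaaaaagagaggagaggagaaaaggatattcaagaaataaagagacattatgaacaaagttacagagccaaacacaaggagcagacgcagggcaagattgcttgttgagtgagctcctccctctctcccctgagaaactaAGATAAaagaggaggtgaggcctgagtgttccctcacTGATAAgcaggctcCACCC
Hemgn, chr4:46404184-46404433, minus strand: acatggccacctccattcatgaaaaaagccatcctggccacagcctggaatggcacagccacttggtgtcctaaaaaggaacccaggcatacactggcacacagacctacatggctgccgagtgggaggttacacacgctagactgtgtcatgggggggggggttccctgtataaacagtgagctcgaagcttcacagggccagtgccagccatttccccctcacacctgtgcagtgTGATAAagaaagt
Klf1, chr8:84901732-84901981, plus strand: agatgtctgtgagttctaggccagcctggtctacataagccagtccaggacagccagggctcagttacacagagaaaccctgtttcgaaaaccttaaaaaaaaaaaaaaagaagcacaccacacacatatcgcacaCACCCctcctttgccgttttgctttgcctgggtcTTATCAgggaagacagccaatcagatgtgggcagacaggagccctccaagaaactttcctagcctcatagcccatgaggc
Hba-a1, chr11:32283422-32283671, plus strand: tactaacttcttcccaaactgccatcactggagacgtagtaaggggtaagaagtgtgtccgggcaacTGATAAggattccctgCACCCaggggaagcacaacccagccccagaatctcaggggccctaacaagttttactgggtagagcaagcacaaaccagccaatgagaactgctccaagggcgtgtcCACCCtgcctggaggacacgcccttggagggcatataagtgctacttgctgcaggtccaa
Distances to the start were counted from the last base of a word as printed. The Kel window held 2 GATA words, 51 and 14 bases before the start, and the Alas2 window held 1 at 81 bases beside 3 CACCC words. In Hemgn the only marked word, TGATAA, ended 8 bases before the start. The Klf1 window had TGATAA at 75 bases and the Hba-a1 window at 178 bases. Windows were available for 27 of the 37 genes, and 16 of these (59.26%) held a GATA word, against 27.09% of 27025 gene windows of the same length. CACCC was found in 20 of 27 (74.07%), against 51.3%, and both kinds of word in 14 (51.85%), against 11.89%. A base shared by a GATA word and CACCC was counted for both. Among the early regulators 4 of 6 windows held a GATA word, among the late genes 11 of 15, and among the heme and iron genes that other cells also use 1 of 6. A match describes the letters of the window and is neither a bound site nor a cause.

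On the 4 arrays 12514 to 13641 of 25697 probes were detected (48.7% to 53.1%), detection meaning a probe's detection p-value under 0.05. The Lats2 probe, whose place relative to the deleted part was not checked here, read 5.92 and 5.47 in controls and 6.54 and 6.07 in DKO livers (normalized log2 intensity, limma adjusted p = 0.53), so it gives no check of the labels. Lats1 was not analysed here. Control 2 read against its label of female: its Y-linked Eif2s3y level was 11.31, against 4.69 to 4.94 on the other arrays, and its Xist level was 5.16, against 9.07 to 9.86. Values without Control 2 are therefore given for the main results. Of the tested erythroid genes, 28 were detected on all 4 arrays. Sptb missed detection on DKO 2, and Hbb-bh1 and Add2 were detected on both control arrays and on neither DKO array, so these last entered the test only through the controls.

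Each of the 31 tested erythroid genes had a negative log2 change from control to DKO, as did 49.6% of all genes, but none passed the threshold of an adjusted p of 0.05 in limma's moderated test, which called 3.43% of all genes (1.68% lower). At an unadjusted p under 0.05, 19 of the 31 were lower (61.3%), against 8.03% of all genes. At an adjusted p under 0.10, Kel, Alas2 and Hemgn were lower, against 2.66% of all genes. The paper's methods name a paired t-test for statistics in general and, for the arrays, only a p threshold. Run on these arrays, that test pairs them by a number that the labels do not tie to a shared animal or litter. It gave 10 at an unadjusted p under 0.05 (10.1% of all genes) and 0 after Benjamini-Hochberg adjustment. Both DKO arrays lay below both control arrays for 25 of the 31 (80.6%), against 22.8% of all genes. The exceptions, in which the groups overlapped, were Hba-a1, Hbb-b2, Alad, Cpox, Rhag and Gata1. The median log2 change of the 31 was -0.996 (range -1.54 to -0.04), beside a median of 0.0046 over all genes tested, and the median standard error (SE) of a single change was 0.37. For the 28 detected on all arrays, 28 changes were negative, 22 had groups that did not overlap (23.1% of all genes detected on all arrays) and the median was -1.03. The median level of the 31 was 10.65 and 10.42 on the control arrays and 9.56 and 9.05 on the DKO arrays. Without Control 2 the median change was -0.93 and none of the 31 passed the threshold. Without DKO 1, Ank1 and Trim10 passed, at -2.11 (adjusted p = 0.027) and -2.27 (adjusted p = 0.021), in a setting that called 5.56% of all genes, and without DKO 2 their changes were -0.96 and -0.70.

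**Figure D1:**
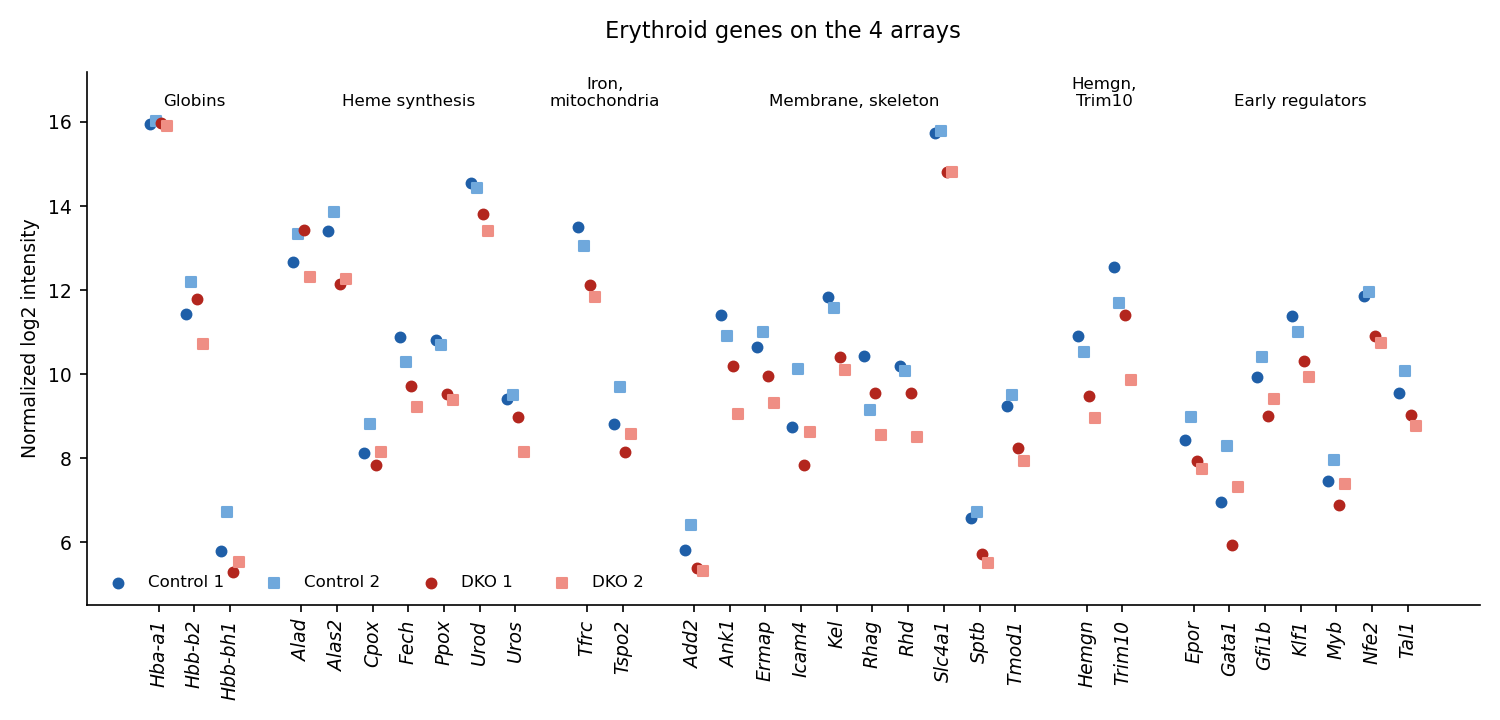
Normalized log2 intensity of the 31 tested erythroid genes on the 2 control arrays (blue) and the 2 DKO arrays (red), grouped by role, with circles for the first array and squares for the second. For 25 genes both red points lie below both blue points, and in Hba-a1 all 4 points lie between 15.90 and 16.01.

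The globins fill the red cell with hemoglobin, and 3 of their probes could be tested, 1 of them near the top of the arrays' range and 1 near background. Hba-a1, an adult alpha-globin gene with a near-identical neighbouring copy, had intensities of 67513 and 66644 in controls and 64989 and 58960 in DKO livers before normalization. The probe ranked 3, 1, 2 and 7 on these arrays, and it was the brightest of all on Control 2 and at 98.8%, 98.1% and 92.4% of the brightest on Control 1, DKO 1 and DKO 2. The normalized log2 levels were 15.95, 16.01, 15.98 and 15.90, so the groups overlapped, with a log2 change of -0.04 (SE 0.33, adjusted p = 0.99), and 0.0039 without DKO 2. So close to the top of the arrays' range a difference may not show, and the value says nothing on whether the RNA was unchanged.

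Hbb-b2, an adult beta-globin gene, read 11.43 and 12.20 in controls and 11.79 and 10.72 in DKO livers. DKO 1 lay between the controls and DKO 2 below them, and the change was -0.56 (SE 0.48, adjusted p = 0.67). Hbb-bh1, an embryonic beta-like globin, was near background: 5.78 and 6.70 in controls, against 5.28 and 5.54 in DKO livers with detection p-values of 0.11 and 0.068. Its level was at least 1.63-fold higher in controls, the DKO level being only a bound (adjusted p = 0.42). A probe that the platform annotation names Hbb-bt, the beta-globin of strains such as C57BL/6 and not a listed gene, read 14.57 and 14.69 in controls, 14.55 in DKO 1 and 13.59 in DKO 2 (change -0.56, SE 0.41, adjusted p = 0.62). In both adult beta-globin probes the drop thus lay in DKO 2. Mouse strains differ in their beta-globin genes, and the labels of this mixed strain do not give the haplotype.

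Heme is built in a chain of enzymes that starts with ALAS, and Alas2 encodes its erythroid form. Its intensities were 11407 and 14954 in controls and 4651 and 4939 in DKO livers, and its log2 levels were 13.40, 13.86, 12.15 and 12.27. The groups were separated by more than either group's spread, with a change of -1.42 (SE 0.35), an unadjusted p of 0.0046 and an adjusted p of 0.092. Leaving out 1 array gave -1.68 (without Control 1) to -1.17 (without Control 2).

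The enzyme after ALAS is encoded by Alad, which hepatocytes also use. Its log2 levels were 12.66 and 13.33 in controls and 13.42 and 12.31 in DKO livers, so that DKO 1 was the highest array and DKO 2 the lowest. The change of -0.13 (SE 0.47, adjusted p = 0.96) became 0.21 without Control 2 and 0.43 without DKO 2.

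Further along the chain, Uros, for uroporphyrinogen III synthase, read 9.40 and 9.50 in controls and 8.98 and 8.14 in DKO livers (change -0.88, SE 0.40, adjusted p = 0.36). Urod, for the decarboxylase that follows it, read 14.54 and 14.42 against 13.80 and 13.41 (change -0.87, SE 0.34, adjusted p = 0.29). In both, the DKO arrays lay below the controls, with DKO 2 the lower. Cpox, for coproporphyrinogen oxidase, read 8.11 and 8.80 against 7.83 and 8.14, and here DKO 2 lay just above Control 1 (change -0.47, SE 0.38, adjusted p = 0.66).

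The last steps lie in the mitochondrion. Ppox, for protoporphyrinogen oxidase, read 10.81 and 10.70 in controls and 9.52 and 9.39 in DKO livers, 2 tight pairs more than 1 log2 unit apart (change -1.30, SE 0.33, adjusted p = 0.10). Its dimmer probe gave -0.77 (adjusted p = 0.42), also without overlap, with DKO 1 the closer to the controls. Fech, for the ferrochelatase that inserts iron, read 10.89 and 10.30 against 9.71 and 9.21 (change -1.13, SE 0.39, adjusted p = 0.22). Its 3 probes gave changes of -1.27 to -1.13, all with separated groups.

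Iron enters the erythroblast through the transferrin receptor, encoded by Tfrc. Its level was 13.49 and 13.06 in controls and 12.11 and 11.84 in DKO livers, again without overlap (change -1.30, SE 0.35, adjusted p = 0.12). A second Tfrc probe gave -1.39 (adjusted p = 0.094). Tspo2, an erythroid relative of the mitochondrial translocator protein, read 8.81 and 9.70 against 8.15 and 8.58. The groups did not overlap, but the spread within controls was as large as the change of -0.89 (SE 0.42, adjusted p = 0.39), which was -0.45 without Control 2 and -1.33 without Control 1.

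The red-cell membrane genes formed the largest group, with 10 of 11 tested and a median change of -1.15. Both DKO arrays lay below both control arrays for 9 of the 10 (90%, against 22.8% of all genes), among them Add2, which was not detected in DKO livers. Slc4a1, for band 3, the anion exchanger that anchors the skeleton, had intensities of 57074 and 58408 in controls and 30531 and 27967 in DKO livers. Its log2 levels of 15.74, 15.79, 14.81 and 14.80 varied little within a group (SD 0.036 in controls and 0.0095 in DKO livers), against a change of -0.95. The probe ranked 72 and 73 on the DKO arrays, and quantile normalization gives neighbouring ranks nearly equal levels. The DKO SD is therefore smaller than the intensities would give. On Control 1 and Control 2 it stood at 83.5% and 87.6% of the brightest probe, where a difference may not show in full. Because the SE of the fit also uses the spread of other genes (0.33), the adjusted p was 0.22.

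The skeleton itself is a net of spectrin tied to band 3 by ankyrin. Sptb, for beta-spectrin, was dim, with 6.57 and 6.72 in controls and 5.72 and 5.51 in DKO livers (change -1.03, SE 0.33, adjusted p = 0.19). Ank1, for ankyrin, read 11.42 and 10.91 in controls against 10.20 and 9.05 in DKO livers (change -1.54, SE 0.47, adjusted p = 0.16). The 2 DKO arrays differed by 1.15, with DKO 2 the lower, and 4 tested Ank1 probes gave changes of -1.54 to -0.73. The most negative change of the 31 genes was that of Ank1 on all 4 arrays, but it was -0.96 without DKO 2, where Gata1, at -1.70, was lowest.

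Tmod1, for the tropomodulin that caps the short actin filaments of the net, read 9.23 and 9.49 in controls and 8.25 and 7.93 in DKO livers (change -1.27, SE 0.34, adjusted p = 0.12). Both DKO arrays were about 1 log2 unit below the controls. Add2, for beta-adducin at the same junctions, read 5.81 and 6.41 in controls and 5.38 and 5.32 in DKO livers, where it was not detected. It was at least 1.48-fold higher in controls (adjusted p = 0.40).

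The blood-group and adhesion proteins of the membrane differed widely in their spread between arrays of a group. Kel, for the Kell antigen, a zinc endopeptidase, had the smallest adjusted p of the 31 genes: 11.83 and 11.58 in controls against 10.40 and 10.09 in DKO livers (change -1.46, SE 0.34, adjusted p = 0.081). Its groups were separated by several times the spread within them. Rhag, for the Rh-associated glycoprotein, read 10.43 and 9.15 in controls and 9.56 and 8.55 in DKO livers.

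For Rhag, then, Control 1 was high, DKO 1 lay above Control 2, and the change of -0.73 (SE 0.54, adjusted p = 0.62) was less than the difference between the controls. It was -0.09 without Control 1, -0.23 without DKO 2, -1.24 without DKO 1 and -1.38 without Control 2. Rhd, for its partner the Rh polypeptide, read 10.19 and 10.08 against 9.56 and 8.50 (change -1.11, SE 0.43, adjusted p = 0.28). Ermap, an immunoglobulin-type protein of the erythroid membrane, read 10.65 and 11.00 against 9.94 and 9.32 (change -1.19, SE 0.38, adjusted p = 0.18). In both genes DKO 2 was the lowest array, and a dimmer Ermap probe gave -0.68 (adjusted p = 0.52). Icam4, an adhesion molecule by which erythroblasts hold to macrophages and to each other, read 8.74 and 10.11 against 7.82 and 8.62. It did not overlap, but each group spread widely, and the change of -1.20 (SE 0.53, adjusted p = 0.35) was -0.51 without Control 2 and -1.89 without Control 1.

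Hemgn, for the nuclear protein hemogen of blood precursors, read 10.91 and 10.51 in controls and 9.48 and 8.95 in DKO livers (change -1.50, SE 0.37, adjusted p = 0.092). Its highest DKO array was 1 log2 unit below its lowest control. Trim10, a tripartite-motif protein of terminal erythroid differentiation, read 12.55 and 11.70 against 11.42 and 9.86 (change -1.48, SE 0.57, adjusted p = 0.27). DKO 1 and Control 2 were close for Trim10 and DKO 2 far below, and its change was -2.27 without DKO 1 and -0.70 without DKO 2.

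**Figure D2:**
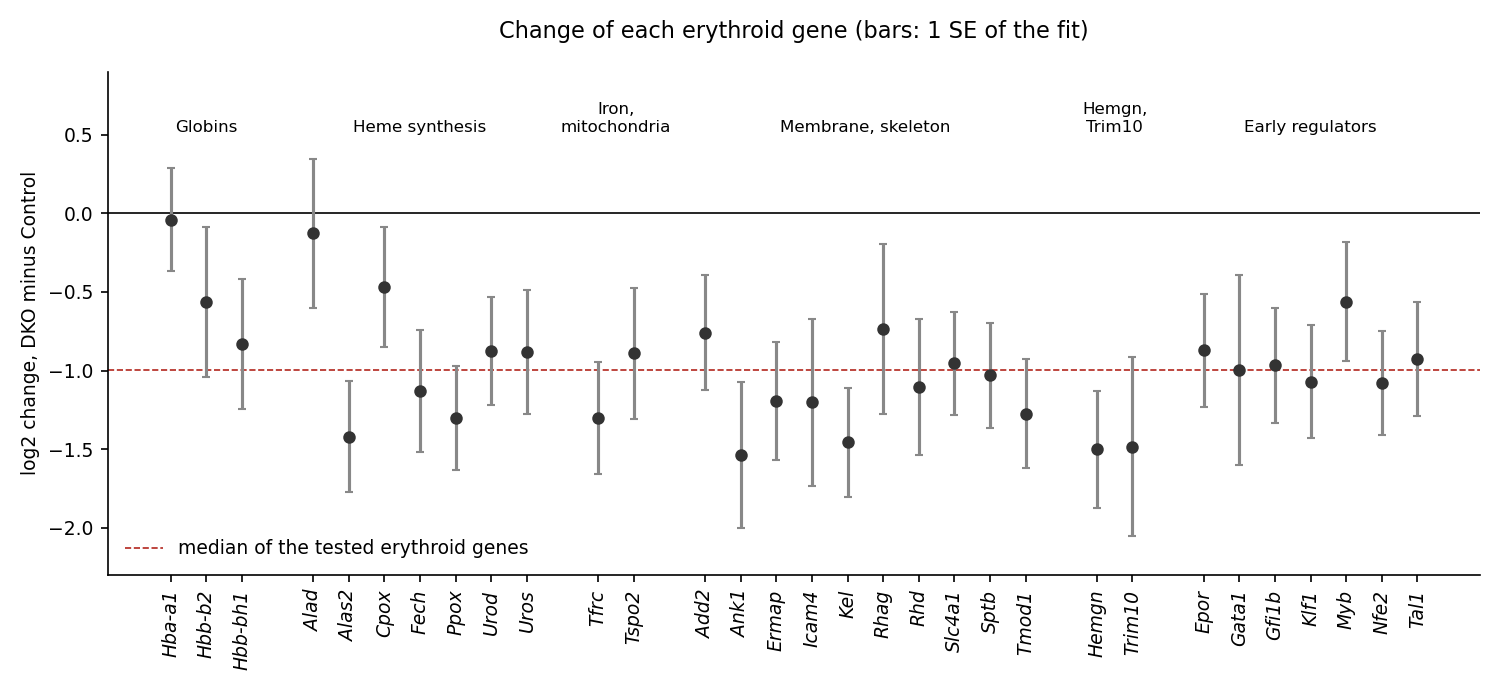
Log2 change of each of the 31 tested erythroid genes, DKO minus control, by role; bars are 1 SE of the limma fit on 2 arrays per group, and the dashed line is the median of the 31 genes, -0.996. The globin Hba-a1 and the heme enzyme Alad lie nearest 0, and Ank1, Hemgn and Trim10 lie lowest.

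Among the early regulators, 6 of 7 had both DKO arrays below both control arrays (85.7%, against 22.8% of all genes). Klf1, for the factor that drives the adult beta-globin and membrane genes, read 11.38 and 10.99 in controls and 10.31 and 9.92 in DKO livers (change -1.07, SE 0.36, adjusted p = 0.20). Nfe2, for the p45 subunit of NF-E2, read 11.86 and 11.94 against 10.90 and 10.74 (change -1.08, SE 0.33, adjusted p = 0.16). Both regulators thus stood about 1 log2 unit lower on each DKO array.

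Tal1, whose product works in a complex with GATA1, read 9.55 and 10.08 in controls and 9.01 and 8.76 in DKO livers (change -0.93, SE 0.36, adjusted p = 0.28). Gfi1b, for a repressor of red-cell and megakaryocyte precursors, read 9.94 and 10.42 against 9.01 and 9.41 (change -0.97, SE 0.37, adjusted p = 0.27). Epor, for the erythropoietin receptor, read 8.43 and 8.97 against 7.93 and 7.73 (change -0.87, SE 0.36, adjusted p = 0.31). In these genes Control 2 was the highest array, and both DKO arrays were below Control 1.

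Gata1, for the master factor of the lineage, read 6.95 and 8.28 in controls and 5.93 and 7.31 in DKO livers. The arrays of each group differed by more than 1 log2 unit, DKO 2 lay above Control 1, and the change was -0.996 (SE 0.60, adjusted p = 0.53). It was -0.34 without Control 2 and -0.31 without DKO 1, but -1.64 without Control 1 and -1.70 without DKO 2. Its second probe gave -1.32 (adjusted p = 0.28). Myb, for a factor of immature progenitors that is lost as the cells mature, had probes of opposite sign. The brighter read 7.45 and 7.95 against 6.89 and 7.39 (change -0.56, SE 0.38, adjusted p = 0.58). The dimmer lay near background, was detected on 1 control and 1 DKO array, and gave 0.07 (SE 0.35, adjusted p = 0.97), so its sign carries little weight.

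The stages were then set against each other. The median change was -0.97 over the 7 early regulators, -1.11 over the 17 late genes tested and -0.88 over the 7 heme and iron genes that other cells also use. Both DKO arrays lay below both control arrays in 6, 14 and 5 of them (85.7%, 82.4% and 71.4%, against 22.8% of all genes). The 14 late genes include Hbb-bh1 and Add2, which entered the test only through the controls, so their place there is not support. Per array, the median level of the late genes was above that of the early regulators by 1.10 and 0.44 in controls and by 0.55 and 0.19 in DKO livers. The groups overlapped in this measure, which was 0.77 on average in controls and 0.37 in DKO livers, a difference of -0.40 beside a pooled SD within groups of 0.38. Taken instead as the late median change minus the early median change, the difference was -0.14, and it was -0.36 without Control 2, -0.25 without DKO 1 and -0.086 without DKO 2. Over the 28 genes detected at 0.01 on all 4 arrays, the late minus early median change was -0.23. No test was run on either measure.

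Arrays of the same group differed in ways that did not run evenly through the lineage. DKO 2 was below DKO 1 in 23 of 31 genes, so DKO 1 was the higher in 74.2%, against 47.5% of all genes, and Control 1 was above Control 2 in 11 of 31 (35.5%, against 48.3%). The first array was the higher in both groups for 11 genes and the second in both for 8, an order shared by 61.3% of the erythroid genes and 67.2% of all genes. Trim10, Ank1 and Rhag were higher on the first array of each group, by 0.86, 0.50 and 1.29 in controls and by 1.55, 1.15 and 1.01 in DKO livers. Gata1 and Icam4 were higher on the second array, the first minus the second being -1.33 and -1.37 in controls and -1.38 and -0.79 in DKO livers. Hbb-b2 and Alad went opposite ways in the 2 groups.

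**Figure D3:**
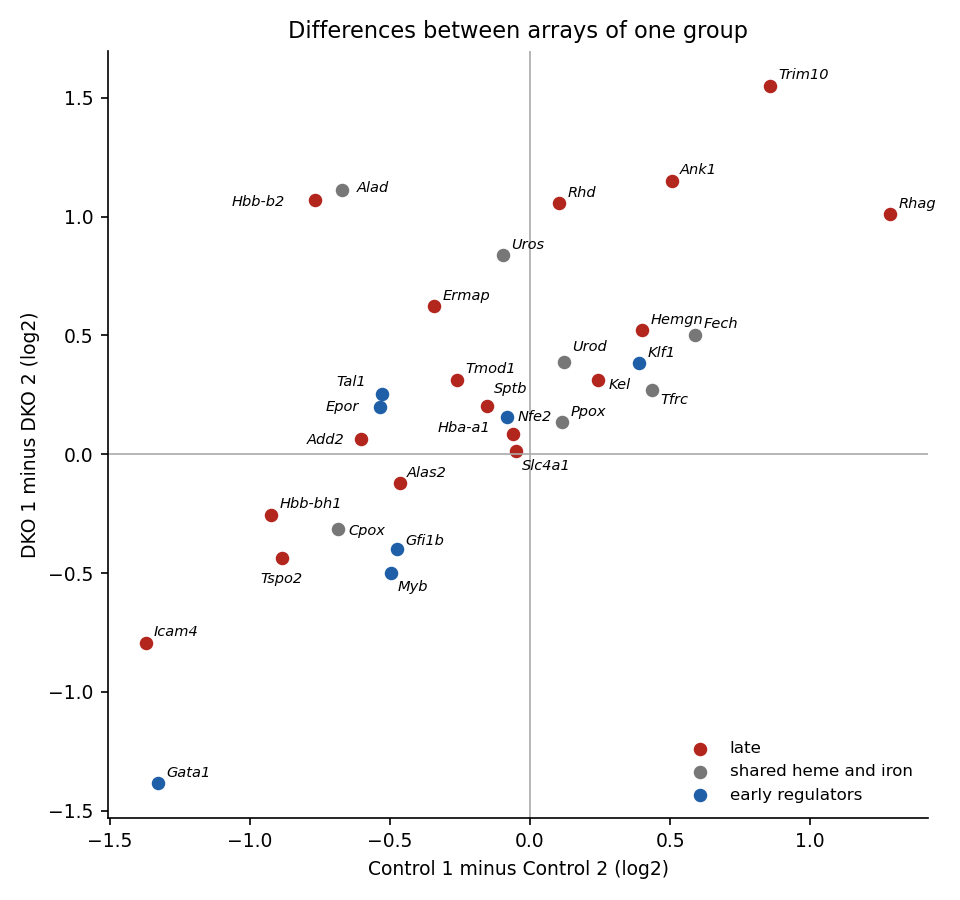
Difference between the 2 arrays of a group for each tested erythroid gene: Control 1 minus Control 2 on the x axis and DKO 1 minus DKO 2 on the y axis, in log2 units, coloured by stage. Trim10, Ank1 and Rhag lie at the upper right, Gata1 and Icam4 at the lower left, and Hbb-b2 and Alad at the upper left.

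A list of 52 other erythroid genes, none among the 37, gave the wider background of the lineage. Of the 40 tested, 0 passed the threshold, 37 changes were negative (92.5%, against 49.6% of all genes) and the median was -0.85. On the lower side, 17 had an unadjusted limma p under 0.05 (42.5%, against 8.03%). Both DKO arrays lay below both control arrays for 25 (62.5%, against 22.8%) and above them for 1. Tfr2, for a second transferrin receptor that also senses iron in hepatocytes, read 10.44 and 10.61 in controls and 8.67 and 9.43 in DKO livers (change -1.47, SE 0.39, adjusted p = 0.11). Dmtn, for dematin of the membrane skeleton, read 11.10 and 11.51 against 10.03 and 9.86 (change -1.36, SE 0.35, adjusted p = 0.10). Nxpe2 gave -1.46 (adjusted p = 0.24) and Fn3k, which removes sugar from glycated hemoglobin, -1.36 (adjusted p = 0.21). Positive values came from Bcl2l1 (0.45), the embryonic globin Hba-x (0.21) and Stom, which was not detected in controls and at least 1.21-fold higher in DKO livers (adjusted p = 0.55). None passed the threshold.

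Other blood cells of the neonatal liver were measured beside the red-cell precursors. Of 13 megakaryocyte genes tested none passed the threshold and the median was -0.73, led by the platelet glycoprotein gene Gp5 (-1.35, adjusted p = 0.11) and F2rl2 (-1.26). Of 15 granulocyte genes none passed and the median was -0.56, led by lactoferrin, Ltf (-1.35, adjusted p = 0.089), and Mmp9 (-1.09). Of 7 B-cell precursor genes none passed and the median was -0.61, led by Cd79b (-1.07) and Rag1 (-1.03). The macrophage list had a median of -0.05 over 9 genes (Lyz2 -0.65, Vsig4 -0.61, Marco 0.59, C1qb 0.50). Both DKO arrays lay below both control arrays in 2 of these (22.2%, against 22.8% of all genes) and above them in 4 (over all genes, 2159 of 9502). The blood progenitor list had a median of -0.22 over 9 genes, with the largest changes in Cebpa (-0.85) and Ptprc (-0.83). Cd34 (0.24) and Spi1 (0.07) were positive, and the rest, among them Gata2, Meis1 and Runx1, lay from -0.30 to -0.15. Cebpa does not stand for progenitors alone, because the paper counts it among the hepatocyte signature genes that fell in L1L2_Alb livers. None of these lists was tested against the erythroid genes.

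The linear levels of the 31 erythroid genes summed to 206909 and 212974 on the control arrays and 147794 and 127607 on the DKO arrays, or 143564, 146860, 82945 and 66552 without Hba-a1. Biliary markers moved the other way: 6 of 7 passed the threshold as higher (over all genes, 166 of 9502), among them Cldn4 (5.49, adjusted p = 0.013) and Krt7 (5.0, adjusted p = 0.0042). Their summed level was 3520 and 7612 in controls and 36841 and 76948 in DKO livers. Most of that sum came from 2 keratins, Krt8 (14.34 and 15.27 in DKO livers) and Krt18 (13.48 and 14.53), so it mainly follows these genes. Krt19 was not detected on either control array and was at least 15.9-fold higher in DKO livers. Of 15 hepatocyte genes 3 passed as lower (1.68% of all genes), among them Cyp2e1 (-7.34, adjusted p = 0.0033) and Cyp3a11 (-6.03, adjusted p = 0.023). The summed level of the 15 was 441886 and 414447 in controls against 369349 and 333389 in DKO livers. Most of that hepatocyte sum came from Serpina1b, Ahsg, Fga, Ttr, Apoa1 and Apoa2, which read 15.29 to 16.01. So close to the top of the arrays' range a fall may not show, so the sum does not measure the size of the hepatocyte change. The part of these shifts in the erythroid values was not tested. Cell-cycle genes, 13 tested, had a median of -0.32 with none past the threshold (Cdc6 -1.19, Ccna2 -0.62).

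**Figure D4:**
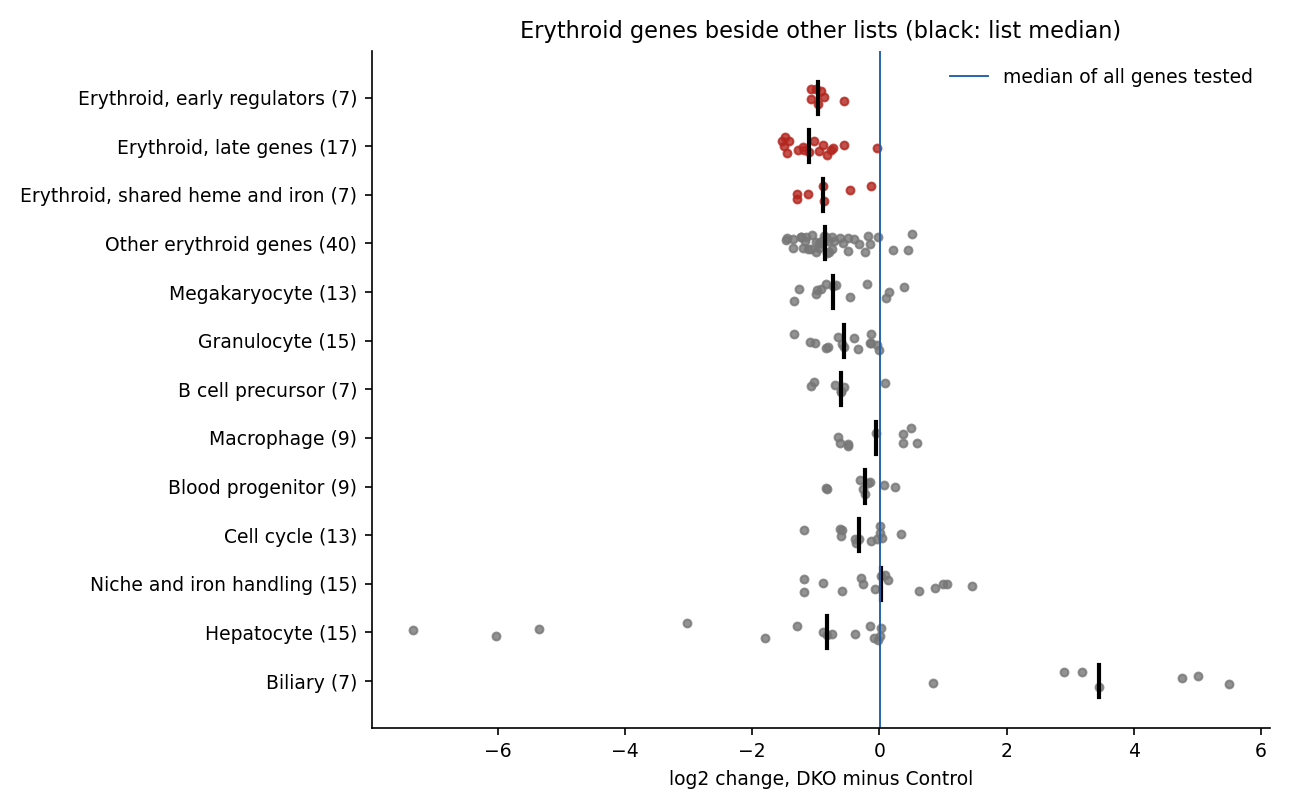
Log2 change, DKO minus control, of every tested gene of the erythroid stages (red) and of other gene lists (grey), with the number of genes in brackets; black bars are list medians and the blue line is the median of all genes tested. The erythroid medians lie between -1.11 and -0.85, and the biliary median at 3.45.

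Iron handling and the erythroid niche of the liver were represented by 15 tested genes, with a median change of 0.03 and none past the threshold. Hamp, for hepcidin, the hormone that lowers iron release into plasma, read 13.53 and 13.87 in controls and 15.03 and 14.36 in DKO livers (change 0.99, SE 0.38, adjusted p = 0.28). Bmp6, which induces hepcidin, was not detected on either control array and was at least 1.75-fold higher in DKO livers (adjusted p = 0.22). Hmox1, for the enzyme that breaks heme down, read 8.21 and 9.21 against 9.36 and 10.17 (change 1.06, SE 0.47, adjusted p = 0.36). In these 3 genes both DKO arrays lay above both controls. Over the 15 genes this held for 4 (over all genes, 2159 of 9502), and both lay below in 2. Bmp6 entered the test only through the DKO arrays. The haptoglobin gene Hp gave -1.19 (adjusted p = 0.23), and Spic, a factor of iron-recycling macrophages, -1.18 (adjusted p = 0.36).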

How the data were processed

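Liver RNA of 2 control and 2 DKO arrays was compared. The authors deposited linear probe intensity before any normalization together with each probe's detection p-value, and a table of normalized intensity, used as an alternative. Not given in the sources used here: scanner software and background step. Groups and replicate numbers came from the sample titles. The description field numbers both controls 1 and both DKO arrays 2.

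Intensities were corrected by normexp in limma 3.58.1 (R 4.3.3), which estimated the negative controls from detection p-values, with an offset of 16, which pulls changes of dim probes toward 0, then quantile normalized and log2 transformed. Probes detected (p under 0.05) on at least 2 of 4 arrays were tested (13654 of 25697), with a linear model and eBayes, two-sided, and Benjamini-Hochberg adjustment over all of them at 0.05. The code was tested on simulated data with 2 arrays per group. It called 4 of 50 probes given a log2 change of 1 and 40 of 50 given a change of 2. Of the 168 probes called there, 14.88% had been given no change. A gene was its tested probe of highest mean, with names from the platform annotation (23978 probes with a symbol). Every listed erythroid gene was named, and of each other list up to 2 (other erythroid genes, 4) per direction past the threshold or, where none passed, the largest changes; further genes were chosen after their values were seen. The genes and lists were chosen with earlier results of these data known. A fold called "at least" sets the detected group's mean against, per array of the other group, the higher of the probe's own level and the lowest level among detected probes. Summed levels are sums of 2 to the power of normalized log2 values.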

Additional observations from a re-analysis of the deposited data

How the results depend on the processing

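With 2 arrays per group, precision is limited by their number, and dim probes such as Hbb-bh1, Add2, Sptb and Gata1 lie close to background. None of the erythroid genes passed the threshold without background correction, with an offset of 50, with median scaling, without normalization between arrays, with the authors' normalized values, with all probes, with detection at 0.01 on all 4 arrays (28 genes), with trend and robust eBayes, or with the mean of a gene's probes. At an adjusted p under 0.10, 3 passed, and at an unadjusted p under 0.05, 19. The paired t-test gave 10 at p under 0.05, against 10.1% of all genes. Leaving out 1 array gave 0 to 2 genes (Ank1 and Trim10, without DKO 1). The median change ranged from -1.12 to -0.83 over all settings, and late minus early from -0.36 to -0.063. The change of Alad ranged from -0.67 to 0.43 when 1 array was left out (0.21 without Control 2, 0.43 without DKO 2), and that of Hba-a1 from -0.076 to 0.0039 (without DKO 2). With the replicate number as a block, 18 of the 31 genes passed, all lower, while the share of all genes called went from 3.43% to 14.2%. Same-numbered arrays deviated together (r = 0.541 over 13654 probes), but there were only 2 pairs and the labels state no shared litter or day, so the number was not taken as a pairing. Over the other settings of the limma fit that share ranged from 0.247% (all probes) to 5.56% (without DKO 1), with 1.44% without background correction and 1.66% with the authors' values. The cause of these differences was not tested.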
